A study of Sciaenops ocellatus with 24 samples.

Results

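The miRNAs miR-184 and miR-204 were followed here in whole red drum (Sciaenops ocellatus) larvae exposed to crude oil. They were the rows named ola-miR-184-5p and ola-miR-204 in the deposited count tables, 2 of 260 names listed in any of the 6 tables, and both were counted in each of the 24 libraries. The larvae came from captive brood stock, and embryos of all groups had been treated with formalin before exposure. Slick oil, skimmed from the Gulf surface after weathering at sea, was given at 1.25%, 2.50% and 5.00% of a blended oil-in-seawater preparation. Source oil, a pipeline oil used as a surrogate for the oil at the well, was given at 0.135%, 0.27% and 0.54%. Each oil had its own unexposed control at 0%, and each of the 8 groups had 3 libraries of pooled larvae taken at 48 hours post fertilization. The number of larvae in a pool is not given in the sources used here. The labels do not say that replicates came from different spawns or tanks. The p-values therefore measure only the spread between these libraries, which may be technical.

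A miRNA is a short RNA that pairs, mainly through its seed near its 5′ end, with messenger RNAs and lowers their translation or stability. In vertebrates miR-184 is abundant in the lens and in the epithelium of the cornea, and miR-204 in the lens, the ciliary body and the pigment epithelium of the retina. In medaka miR-204 limits the homeobox factor Meis2 during lens and retina formation, and inherited changes of either miRNA cause eye disease in humans. Neither is restricted to the eye: miR-204 is also found in kidney, pancreas and choroid plexus of mammals. The counts come from whole larvae, so the tissue behind them was not measured, and fewer cells of a type cannot be told apart from less of the miRNA per cell. In other vertebrates most miR-184 is made from the 3p arm. The 5p in the name ola-miR-184-5p could not be checked, since the files used here hold names and counts but no sequence. Neither miRNA was listed under another species prefix, and 0 names of miR-211, the close relative of miR-204, were listed.

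The libraries held 2820454 to 9741582 counts each, and those of 5.00% slick oil were the shallowest, with at least 4440488 counts in every other library. The members had 14922 to 72721 counts per library, which puts the counting error at or under 0.819%, far below the spread between replicates in nearly all groups. Levels are given as CPM, counts scaled to a library total common to all libraries, over the 97 names that were listed in all 6 tables with equal control counts and counted in all 24 libraries, scaled by TMM over the 24 libraries. Log2 fold changes and p-values come from edgeR's quasi-likelihood test within each comparison's own table, with Benjamini-Hochberg adjustment over all names tested in it, and an adjusted p under 0.05 is a call. Names had to be counted in every library of a fit. Fits that also admit names with zeros have a far larger estimated spread, and their values stand beside the result where a call changes.

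In unexposed larvae both miRNAs were more abundant in the source oil experiment than in the slick oil experiment. ola-miR-184-5p was at 11801, 15863 and 13142 CPM in source controls 1 to 3 and at 8555, 8321 and 7495 CPM in slick controls 1 to 3. In CPM the highest slick control thus lay below the lowest source control. The log2 difference, slick control against source control, was -0.70 ± 0.14 (SE, n = 3 against 3, adjusted p = 0.0027), from group means of 13602 ± 2069.8 and 8124 ± 557 CPM (SD). ola-miR-204 was at 12516, 12683 and 12566 CPM in the source controls, a coefficient of variation of 0.681%, below that of each of the 96 other names. In the slick controls it was at 7836, 8645 and 9799 CPM, again without overlap on this scale. Its log2 difference was -0.48 ± 0.13 (adjusted p = 0.00984). As a percentage of all counts of a library, both members overlapped between the controls. ola-miR-184-5p made up 0.684% in slick control 2 and 0.594% in source control 1. ola-miR-204 made up 0.784% in slick control 3 and 0.63% in source control 1. The share of all names without overlap was not counted. The controls differed widely: 44.7% of the 103 names tested were called between them, 24.3% as lower in the slick controls. The ola-miR-204 call rests on single libraries and on the scaling, with adjusted p = 0.058 without slick control 1, 0.051 without source control 2, 0.091 under library totals alone and 0.064 with zeros admitted. Experiment, spawn and library preparation cannot be told apart in this difference.

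Among the 97 names ola-miR-184-5p ranked between 9 and 16 by mean level in the 8 groups and ola-miR-204 between 8 and 15, so both were among the abundant miRNAs of the larvae throughout.

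**Figure D1:**
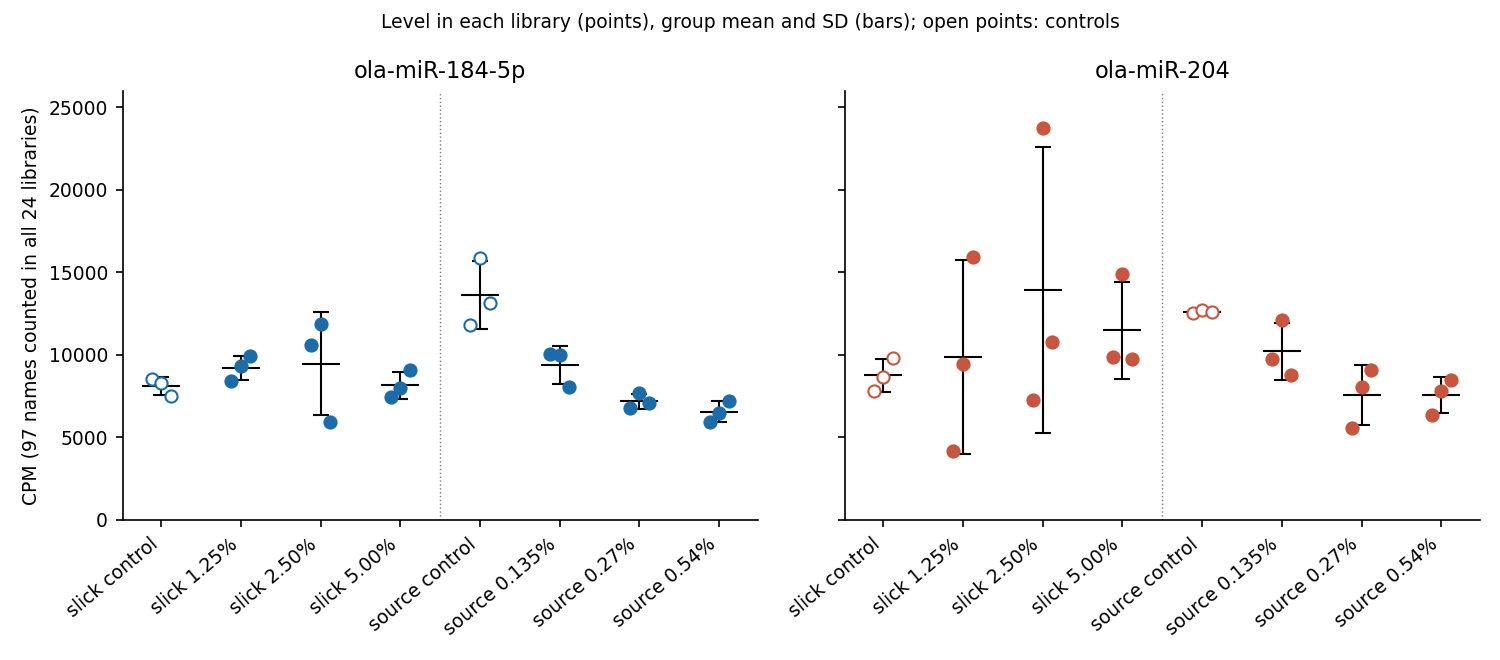
Level of ola-miR-184-5p (left) and ola-miR-204 (right) in CPM, on axes from 0, in each of the 24 libraries (points; open points are controls), with the mean and SD of each group of 3 (bars). In the source oil groups the mean of both is lowest at 0.54% and highest in the control, whereas the slick oil groups overlap their control and ola-miR-204 ranges from 4181 to 15946 CPM at 1.25%.

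Both miRNAs fell in larvae given the middle and the highest concentration of source oil. At 0.54% source oil ola-miR-184-5p was at 5959, 6463 and 7220 CPM, well under every source control, and its group mean was 48.1% of that of the controls. The log2 fold change was -1.10 ± 0.12 (SE, n = 3 against 3, adjusted p = 0.000991), the lowest value and the smallest p of the 119 names tested. ola-miR-204 was at 6351, 7833 and 8465 CPM, 60% of the control mean, also without overlap with the controls. It changed by -0.78 ± 0.12 (adjusted p = 0.00399), the fifth lowest log2 fold change and the third smallest p. At this concentration 39.5% of the names were called, 21.8% as lower. In 30.3% all exposed libraries lay below all controls, in CPM scaled within this comparison over its 119 names. Both members were without overlap on that scale too. Leaving out any of the 6 libraries kept both calls. With zeros admitted, where 14.4% of the names were called, both were called as well, and without any count filter ola-miR-204 had an adjusted p of 0.0598.

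At 0.27% source oil ola-miR-184-5p was at 6792, 7659 and 7100 CPM, 52.8% of the control mean. It had the smallest p of 115 names, with a log2 fold change of -0.92 ± 0.11 (adjusted p = 0.00495), and it was called in each of the 6 fits without a library. ola-miR-204 was more uneven, at 5551, 8050.0 and 9084 CPM, yet again below every control, and changed by -0.73 ± 0.17 (adjusted p = 0.0227). As a percentage of all counts of a library, exposed library 3 held 0.718% ola-miR-204, above source control 1 at 0.63%. ola-miR-184-5p stayed below the controls on that measure, with at most 0.561% against at least 0.594%. Of the names tested 23.5% were called, 13.9% as lower. In CPM scaled within this comparison 19.1%, both members among them, had all exposed libraries below all controls. The ola-miR-204 call was weak. Its adjusted p was 0.0547, 0.0874 and 0.0746 without source control 1, 2 or 3 and 0.0672 without exposed library 2. It was 0.109 with zeros admitted, where 1.27% of the names were called, and 0.0604 under library totals alone. ola-miR-184-5p was called with zeros admitted but not without any count filter (adjusted p = 0.0907).

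At 0.135% source oil neither miRNA was called. ola-miR-184-5p was at 10051, 10007 and 8044 CPM, below every control, and its log2 fold change was -0.53 ± 0.12 (adjusted p = 0.0952), the smallest p of 114 names. edgeR called 0% of these names and DESeq2 called 13, while the unadjusted p was under 0.05 for 27. DESeq2 called it (adjusted p = 0.00196), as did the fit over all 12 source oil libraries (0.0386) and the fit without source control 1 (0.0224). Fits of this comparison that left out 1 library called 0 to 9 names, and the other settings 0 to 13. ola-miR-204 was at 9727, 12132 and 8782 CPM, with its highest library just under the lowest control, and had a log2 fold change of -0.30 ± 0.11 (adjusted p = 0.142). In CPM scaled within this comparison all exposed libraries lay below all controls in 7.89% of the names, both members among them. As a percentage of all counts of a library, however, both members overlapped the controls. Exposed library 2 held 0.676% ola-miR-184-5p and 0.82% ola-miR-204, against 0.594% and 0.63% in source control 1.

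Over the 12 source oil libraries both levels had a negative slope on the concentration, though ola-miR-204 was nearly level from 0.27% to 0.54%. The slope per highest concentration, with the control at 0%, was -1.002 ± 0.151 on the log2 scale for ola-miR-184-5p (adjusted p = 0.000133) and -0.73 ± 0.17 for ola-miR-204 (adjusted p = 0.00276). Here 52.3% of the 109 names were called, 24.8% with a negative slope, so a slope as such was common. Both slopes kept their calls without any 1 of the 12 libraries and under each of the 7 other settings. Between neighbouring concentrations no step was called for either member, and edgeR with TMM called 0 names at either step: the unadjusted p was under 0.05 for 20 names at the lower and 7 at the upper step. DESeq2 called 2 names at the lower and 1 at the upper step, and edgeR called 6 at the lower step under library totals alone and 3 with a replicate block. From 0.135% to 0.27% ola-miR-184-5p changed by -0.37 ± 0.12 (adjusted p = 0.135) and ola-miR-204 by -0.42 ± 0.16 (adjusted p = 0.188). From 0.27% to 0.54% the values were -0.14 ± 0.12 (adjusted p = 0.82) and -0.01 ± 0.16 (adjusted p = 0.982), with 95% intervals of -0.39 to 0.11 and -0.35 to 0.32. Between 0.135% and 0.54% the change of ola-miR-184-5p was -0.51 ± 0.12 (adjusted p = 0.011), and ola-miR-204 was at -0.43 ± 0.16 (adjusted p = 0.0605). The fall of ola-miR-184-5p between these concentrations was not called without exposed library 2 of 0.135% (adjusted p = 0.0736), without exposed library 1 of 0.54% (0.0546), under library totals alone (0.061) or without a count filter (0.0691). ola-miR-204 was called by DESeq2 (0.0336), without exposed library 3 of 0.135% (0.0477) or without exposed library 1 of 0.27% (0.0223). In this step 22.9% of the names were called.

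The choice of scaling moves the source oil values, and it turned the sign of the near-zero step of ola-miR-204 from 0.27% to 0.54%, to 0.012 under library totals alone. With no scaling beyond library totals, the median over all names moved from 0.03 to 0.27 at 0.54% and from 0.03 to 0.22 at 0.27% source oil. Set on that scale ola-miR-184-5p was at -0.87 and ola-miR-204 at -0.56 at 0.54%, both still called. The calls of all names shifted with it, from 26 lower and 21 higher to 14 lower and 43 higher at 0.54%, and from 16 lower and 11 higher to 2 lower and 31 higher at 0.27%.

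**Figure D2:**
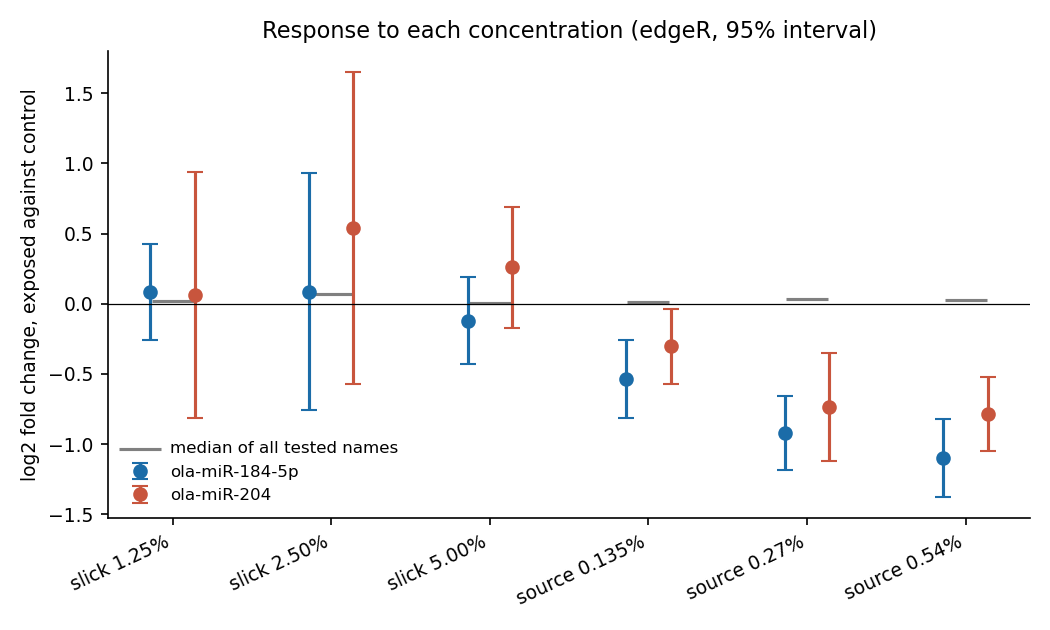
Log2 fold change of each exposed group against the control of its oil for both miRNAs, with 95% intervals (edgeR, 3 against 3 libraries), and the median of all tested names (grey dashes). The source oil values descend from -0.53 to -1.10 for ola-miR-184-5p and from -0.30 to -0.78 for ola-miR-204, while the slick oil intervals all hold 0.

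Slick oil gave no call for either miRNA at any concentration. At 5.00% ola-miR-184-5p was at 7431, 7982 and 9053 CPM against 7495 to 8555 CPM in the slick controls, and the libraries overlapped. The log2 fold change was -0.12 ± 0.14 (adjusted p = 0.643) with a 95% interval of -0.43 to 0.19, which does not reach the values seen at 0.27% or 0.54% source oil. ola-miR-204 was at 9840, 14868 and 9726 CPM, where the highest control was at 9799 CPM. Library 2 thus lay well above that control, library 1 just above it and library 3 just below it. The log2 fold change of ola-miR-204 was 0.26 ± 0.19 (adjusted p = 0.428, interval -0.17 to 0.69), or 0.11 without exposed library 2. At this concentration 5.5% of 109 names were called.

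At 2.50% slick oil the libraries scattered. ola-miR-184-5p was at 10615, 11857 and 5911 CPM, with exposed library 3 below and the others above all controls, and had a log2 fold change of 0.08 ± 0.36 (adjusted p = 0.95, interval -0.76 to 0.93). ola-miR-204 was at 7255, 23733 and 10773 CPM, and its value of 0.54 ± 0.48 (adjusted p = 0.768, interval -0.57 to 1.65) turned to -0.21 without exposed library 2. Scatter was general in this group, with a median coefficient of variation of 37% over the 97 names. Of 117 names 0% were called by edgeR and 0 by DESeq2, and 8 had an unadjusted p under 0.05.

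At 1.25% slick oil the members behaved differently from each other within the group. ola-miR-184-5p was even, at 8434, 9321 and 9900 CPM, with a log2 fold change of 0.08 ± 0.15 (adjusted p = 0.913, interval -0.26 to 0.42). ola-miR-204 ran from 4181 CPM in exposed library 1 over 9457 to 15946 CPM in library 3, a coefficient of variation of 59.8%, where the median name had 17.6% and 1 of the 97 names had more. Its log2 fold change was 0.06 ± 0.39 (adjusted p = 0.981, interval -0.81 to 0.94), and -0.51 without exposed library 3. The value of ola-miR-204 at 0.54% source oil, -0.78, lies inside its wide interval at 1.25% slick oil and outside its interval at 5.00%. Of 117 names 0% were called by edgeR and 1 by DESeq2, and 3 had an unadjusted p under 0.05. The slope over the 12 slick oil libraries was -0.06 ± 0.27 for ola-miR-184-5p and 0.38 ± 0.45 for ola-miR-204 (adjusted p = 0.942 and 0.881), where 1% of 100 names were called.

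The order of the group means sets these responses side by side. For ola-miR-184-5p the order was source control (13602 CPM), slick 2.50% (9461), source 0.135% (9368), slick 1.25% (9218), slick 5.00% (8155), slick control (8124), source 0.27% (7184) and source 0.54% (6548). For ola-miR-204 it was slick 2.50% (13920.4), source control (12589), slick 5.00% (11478), source 0.135% (10214), slick 1.25% (9861), slick control (8760.0), source 0.27% (7562) and source 0.54% (7549.7). The libraries of every pair of neighbours in either order overlapped, also those of the source control and 2.50% slick oil for ola-miR-184-5p, whose nearest libraries were at 11801 and 11857 CPM. The group means at 0.27% and 0.54% source oil lay below that of the slick controls, to which no exposed source oil group was compared by a test.

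The difference between the oils was tested directly as an interaction. Between the highest concentrations, 5.00% slick and 0.54% source oil, the response to slick minus that to source oil was 0.99 ± 0.21 on the log2 scale for ola-miR-184-5p and 1.03 ± 0.21 for ola-miR-204 (adjusted p = 0.00887 for both). These were the second smallest and the smallest p of 107 names, of which 25.2% were called, 13.1% in the negative and 12.1% in the positive direction. Both were called in each of the 12 fits without a library, with log2 values of 0.81 to 1.07 and 0.82 to 1.13. With zeros admitted, where 3.01% of the names were called, ola-miR-204 had an adjusted p of 0.0519 and ola-miR-184-5p of 0.0296. The oils were loaded at different percentages, and only the rank of the concentration matches. The source controls also started from a higher level, and its part in the difference was not tested. At the middle rank the values were 1.03 ± 0.36 and 1.29 ± 0.49 (adjusted p = 0.378 for both), and ola-miR-184-5p was called without slick 2.50% library 3 (1.25, adjusted p = 0.00377). Fits at the middle rank that left out 1 library called from 0 to 13 names. The value of ola-miR-204 was 0.53 without slick 2.50% library 2. At the lowest rank they were 0.63 ± 0.18 and 0.39 ± 0.44 (adjusted p = 0.322 and 0.81). With all libraries kept, 0% of the names were called by edgeR and 0 by DESeq2 at each of these ranks, and 8 had an unadjusted p under 0.05.

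**Figure D3:**
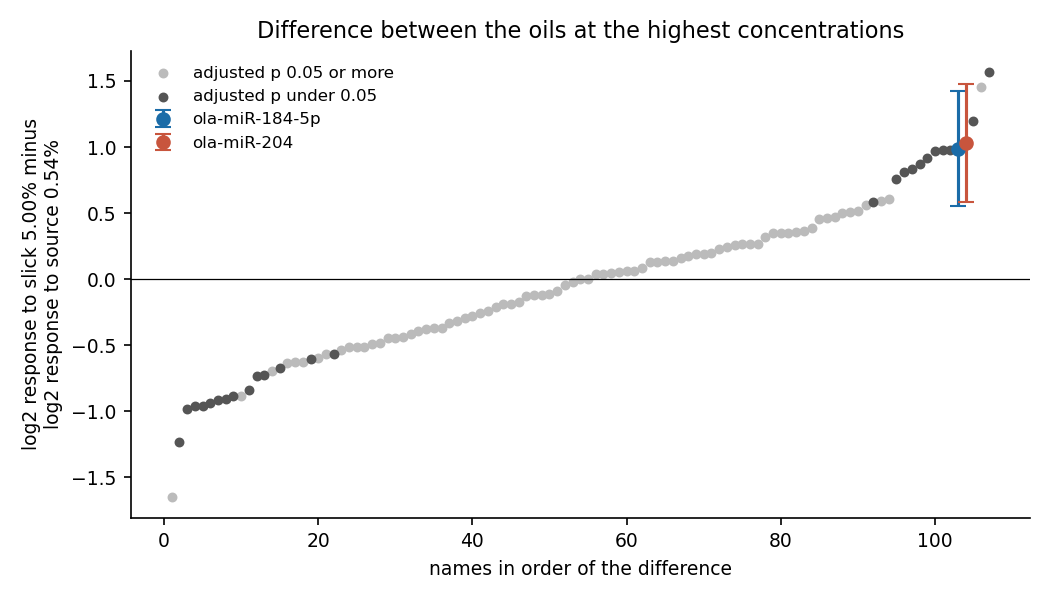
Response to 5.00% slick oil minus response to 0.54% source oil on the log2 scale for the 107 names tested, in order of size, with called names in dark grey and 95% intervals for the members. ola-miR-184-5p (0.99) and ola-miR-204 (1.03) lie near the positive end of the range.

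The ratio of the members within a library does not depend on the scaling between libraries. Counts of ola-miR-184-5p divided by those of ola-miR-204 gave log2 ratios of -0.08, 0.32 and 0.06 in the source controls and of -0.09, -0.28 and -0.23 at 0.54% source oil. Those libraries just failed to overlap, by less than 0.01 between the nearest of them, and the group means were 0.10 ± 0.21 and -0.20 ± 0.10 (SD, n = 3). At 0.135% and 0.27% source oil the ratios ran from -0.28 to 0.05 and from -0.36 to 0.29. In slick oil larvae they spread far more, from 1.01 in exposed library 1 to -0.69 in library 3 at 1.25% and from 0.55 in library 1 to -1.001 in library 2 at 2.50%. At 5.00% they were -0.41, -0.90 and -0.10, against 0.13, -0.06 and -0.39 in the slick controls. The 2 miRNAs therefore kept nearly equal counts in source oil larvae and drifted apart between single slick oil libraries. No test was made of the ratio.

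**Figure D4:**
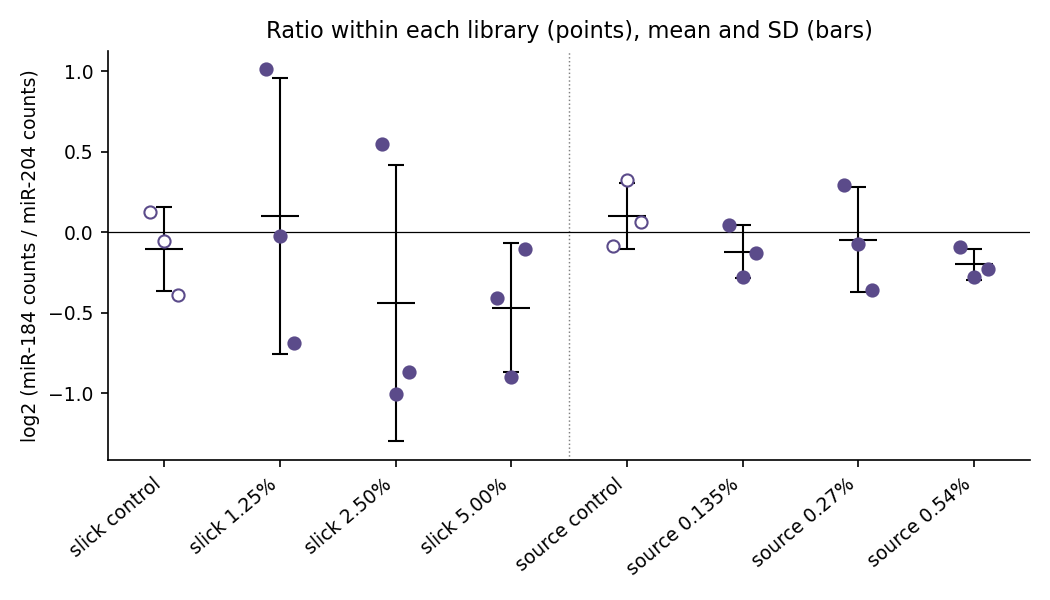
Log2 ratio of ola-miR-184-5p to ola-miR-204 counts in each library (points; open points are controls), with group mean and SD (bars). Source oil libraries lie between -0.36 and 0.32, slick oil libraries between -1.001 and 1.01.

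Other miRNAs known from the eye and sensory organs gave a mixed picture beside them. Of the list for lens, cornea and pigment epithelium (miR-184, miR-204, miR-211, miR-205 and miR-31) 3 names were listed, the third being cgr-miR-205, a miRNA of surface epithelia including the cornea. It was not called in any of the 6 comparisons, with log2 fold changes from -0.45 at 5.00% slick oil (adjusted p = 0.107) to 0.07 at 0.54% source oil. The list for retina and other sensory cells (miR-182, miR-183, miR-96, miR-124 and miR-181) had 8 names tested at 0.54% source oil, where 1 was called lower and 1 higher, against 21.8% of all names called lower and 39.5% called in either direction, with a median of 0.00 beside 0.03 over all names. chi-miR-182, of photoreceptors and hair cells, was at -0.45 ± 0.07 (adjusted p = 0.00399), and ola-miR-181a-5p rose by 0.28 ± 0.09 on the log2 scale (adjusted p = 0.0408). The other miR-181 names tested there were not called, at -0.11 (cfa-miR-181b), -0.09 (ssa-miR-181b-5p) and -0.07 (hsa-miR-181b-2-3p). At 0.135% and 0.27% source oil ola-miR-181a-5p was at 0 in 1 exposed library and was not tested. chi-miR-96, transcribed together with miR-182, was at 0.08 ± 0.09. At 0.27% source oil chi-miR-182 was at -0.21 ± 0.08 (adjusted p = 0.0839). Its 3 miR-183 names were at 0 in some libraries of each table that listed them and were not tested.

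At 5.00% slick oil the same list had 1 of 8 names called lower, beside 3 of all 109 names. Its median was -0.53, beside 0.01 over all names, and 7 of the 8 log2 fold changes were negative. dre-miR-124-4-5p, of neurons including those of the retina, changed by -0.83 ± 0.17 (adjusted p = 0.0286), ola-miR-124-5p by -0.66 ± 0.17 (adjusted p = 0.0554) and chi-miR-96 by -0.79 ± 0.25 (adjusted p = 0.104). In the interaction between the oils at the highest concentrations 4 of these 8 names were called negative, beside 13.1% of all 107 names. Among them were chi-miR-96 (-0.88 ± 0.26, adjusted p = 0.0178) and both miR-124 names, whereas miR-184 and miR-204 were called positive. cgr-miR-205, listed with miR-184 and miR-204, was negative there but not called (-0.51 ± 0.21, adjusted p = 0.0884). chi-miR-182 was at 0.04 ± 0.18 (adjusted p = 0.902). Between the controls 7 names of the list for retina and other sensory cells were tested. Of these 3 were called higher in slick controls, beside 21 of all 103 names, and 1 lower, beside 25. Higher were hsa-miR-181b-2-3p (0.66, adjusted p = 0.0116), chi-miR-96 (0.51, adjusted p = 0.0322) and dre-miR-124-4-5p (0.44, adjusted p = 0.0323). chi-miR-182 was called lower there (-0.40, adjusted p = 0.0144), as were miR-184 and miR-204. ola-miR-124-5p was not called there (0.25, adjusted p = 0.201). The part of these starting levels in the interaction was not tested. Both miR-124 and miR-181 are widely expressed in the nervous system.

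**Figure D5:**
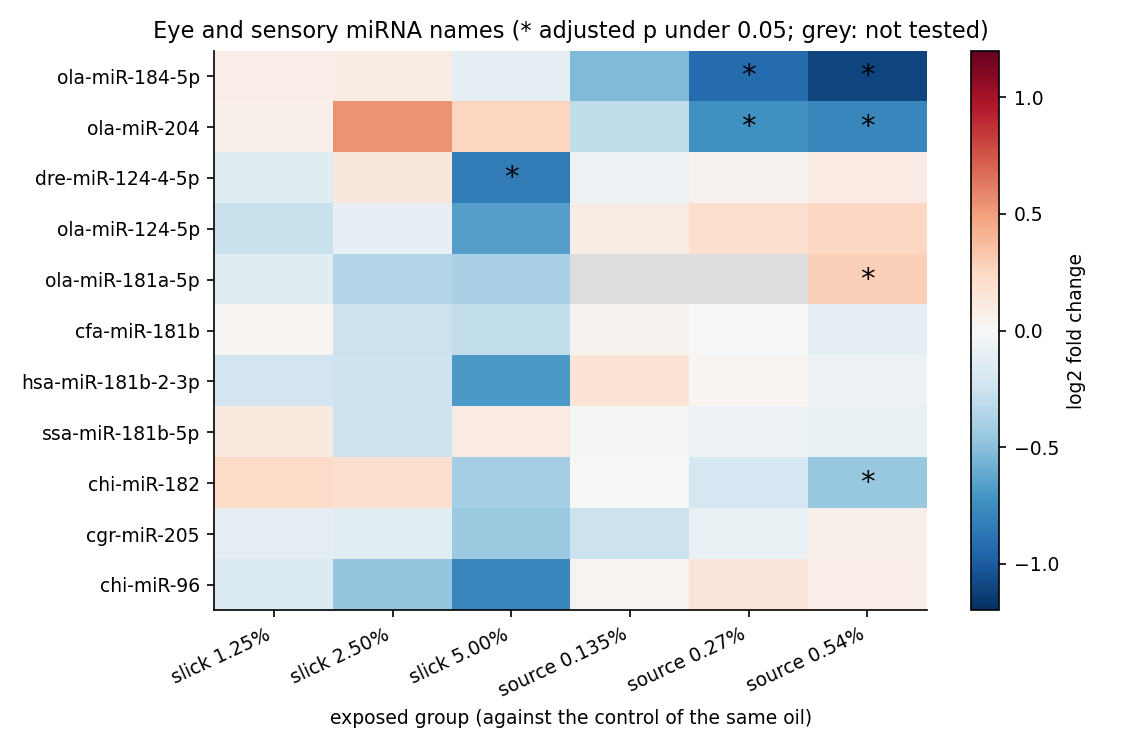
Log2 fold change of the eye and sensory names (rows) in each exposed group against its control (columns), blue for lower and red for higher, with called values starred and untested ones grey. ola-miR-184-5p and ola-miR-204 are the rows called lower at both 0.27% and 0.54% source oil, while dre-miR-124-4-5p is called lower at 5.00% slick oil.

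Markers of other tissues gave few names to test. At 0.54% source oil 2 of 2 erythroid names, 2 of 8 neuron names, 1 of 3 muscle names and 1 of 2 pancreas and endocrine names were called lower, against 0 of 4 skin names and 21.8% of all names. Higher calls were 1 muscle and 1 pancreas name, beside 21 of all 119 names. The list medians were -0.88, -0.16, 0.09, -0.11 and 0.17 in the order erythroid, neuron, muscle, pancreas and skin. The part of tissue makeup in the fall of miR-184 and miR-204 was not tested.

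The names whose levels ran most like those of each member were sought over the 24 libraries, with log2 CPM of each oil centred on the mean of its 12 libraries. The libraries share depth and scaling, and the values are descriptions. For ola-miR-184-5p, among 96 other names, they were ola-miR-100 (Pearson r = 0.81), ipu-miR-375 (0.79), a miRNA of islet and other endocrine cells, ola-let-7g (0.74), ssa-miR-222a-5p (0.73) and ssa-miR-206-5p (0.73), the skeletal muscle miRNA. The least like were rno-miR-3570 (-0.80) and efu-miR-29b (-0.79). For ola-miR-204 they were oar-miR-30d (0.76), sha-miR-10b (0.74) and mdo-miR-10b-5p (0.71), both names of a miRNA from the Hox clusters, ola-miR-731 (0.71), of a cluster known from bony fishes, and mdo-miR-128a-5p (0.64), a neuronal miRNA. rno-miR-133b-5p (-0.63) and tgu-miR-142-5p (-0.64) were least like it. The 2 lists share no name. The arm in names ending in 5p, such as ssa-miR-206-5p and mdo-miR-128a-5p, could not be checked without sequence. The members had r = 0.52 with each other, 0.88 over the 12 source oil and 0.28 over the 12 slick oil libraries, so that ola-miR-184-5p was 8th in likeness to ola-miR-204 and ola-miR-204 was 17th in likeness to ola-miR-184-5p.

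These names were chosen over libraries that include those in which the members fell, so their own values there are a description of the choice and support nothing. At 0.54% source oil, where 21.8% of all names were called lower, ola-miR-100 was at -0.69 ± 0.13, ssa-miR-222a-5p at -0.69 ± 0.18, mdo-miR-128a-5p at -0.82 ± 0.21 ola-miR-731 at -0.53 ± 0.15 and oar-miR-30d at -0.19 ± 0.10 on the log2 scale. At 5.00% slick oil the 10 most like names ranged from -0.07 for ipu-miR-375 to 0.46 for mdo-miR-10b-5p.

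The authors' deposited table for 0.54% source oil gives ola-miR-184-5p a log2 fold change of -1.08 (adjusted p = 5.43e-13) and ola-miR-204 a log2 fold change of -0.77 (adjusted p = 1.41e-08). For 0.27% the authors' deposited table has -0.93 (adjusted p = 7.56e-15) and -0.73 (adjusted p = 0.000656). For 0.135% the authors' deposited table calls ola-miR-184-5p (-0.54, adjusted p = 0.00398) but not ola-miR-204 (-0.31, adjusted p = 0.127). Of all names these source oil tables call 63 of 198 at 0.54%, 33 of 190 at 0.27% and 22 of 195 at 0.135%. For slick oil the authors' deposited tables call neither member, with adjusted p from 0.613 to 0.998. They call few names at all: 3 of 198 at 1.25%, 5 of 200 at 2.50% and 21 of 190 at 5.00%.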

How the data were processed

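Small RNA of 24 pools of whole larvae was extracted (miRNeasy), prepared with NEBNext small RNA reagents and run on an Illumina NextSeq, according to the labels' protocols. The authors deposited 6 tables of raw read counts per mature miRBase name, per the file headers. How reads were aligned, against which miRBase release, and how reads matching several names were assigned is not given in the sources used here. Counts of 1 miRNA may therefore be split between names or entered under more than 1 name. Many names were at 0 in some libraries, and the reason was not tested. ola-miR-142 and tgu-miR-142-5p had the same log2 fold change at each slick oil concentration (-0.40 at 1.25%). Shares of all names can therefore count such a miRNA more than once. All 36 count columns could be tied to a sample through its labels. For each comparison a DESeq2 table was deposited as well, per the submitters' processing notes, with a mean signal (counts divided by size factors) of each group, a score that is the difference of the means, a log2 fold change and p-values. Only its log2 fold changes and adjusted p-values were used.

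The counts were tested with edgeR 4.0.16 in R 4.3.3 (TMM, glmQLFit, glmQLFTest, two-sided) over names reaching 10 counts in 3 or more libraries and counted in every library. Their common biological coefficient of variation was 11.4% to 36.7% in the 6 comparisons, against 124% to 139% when zeros were admitted. Standard errors are the absolute log2 fold change over the square root of F. Fits across tables used names with equal control counts. DESeq2 1.42.0 and other alternatives are given in the closing section. The fits were tested on simulated data. Likeness used a prior count of 0.5, and the rule named the 5 most and 2 least like names per member. Members, lists and fits were chosen with earlier results of these data known.

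Same-numbered libraries were checked for shared deviations from their group means (correlation over 97 names). At 2.50% slick oil all 3 pairs with the controls exceeded 0.1 (0.105, 0.376 and 0.482), a hint from the data only, and in the other 5 comparisons at least 1 pair was below 0.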

Additional observations from a re-analysis of the deposited data

Results flagged for a closer look

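The responses of both miRNAs to the highest concentrations of the 2 oils differed by a direct test of the difference. The log2 response to 5.00% slick oil minus that to 0.54% source oil was 0.99 for ola-miR-184-5p and 1.03 for ola-miR-204. The adjusted p was 0.00887 for both (edgeR interaction test over 107 names, of which 25.2% were called). With zeros admitted ola-miR-204 was not called (adjusted p = 0.0519). The oils were loaded at different percentages in separate experiments. Both members were called higher in the source controls than in the slick controls, and the part of this in the difference was not tested. All 6 comparisons have groups of 3 libraries, which were not searched for single libraries that stand apart.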

How the results depend on the processing

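Of 598 values of the members under other settings, 544 kept their direction and their side of the threshold, 22 lost a call, 8 gained a call and 24 changed sign. The labels state no pairing, and the check of same-numbered libraries, with 3 per group, cannot settle whether there is one. With the replicate number as a block, ola-miR-204 was at -0.12 at 1.25% slick oil, ola-miR-184-5p at -0.011 at 2.50% slick oil and -0.019 from 1.25% to 2.50%, none of them called. The block also took the call of ola-miR-204 at 0.27% source oil (-0.77, adjusted p = 0.0518) and gave it one from 0.135% to 0.54% (-0.44), and changed no other call of the members.

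DESeq2 called ola-miR-184-5p at 0.135% source oil (-0.55) and ola-miR-204 from 0.135% to 0.54% (-0.43), and the fit over all 12 libraries called ola-miR-184-5p at 0.135% (-0.54). With zeros admitted ola-miR-204 lost its calls at 0.27% source oil (-0.72, also with robust dispersion), between the controls (-0.45, also with robust dispersion) and between the oils at the highest concentrations (1.01). Without a count filter ola-miR-184-5p lost its calls at 0.27% (-0.94) and from 0.135% to 0.54% (-0.51), and ola-miR-204 at 0.27% (-0.76), at 0.54% (-0.77) and between the controls (-0.45). Under library totals alone ola-miR-204 lost its calls at 0.27% (-0.53) and between the controls (-0.31), ola-miR-184-5p from 0.135% to 0.54% (-0.29), and ola-miR-204 changed sign from 0.27% to 0.54% (0.012). The cause of these changes was not tested.

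Leaving out single libraries gave ola-miR-184-5p ranges of -0.0092 to 0.13 at 1.25% slick oil, -0.18 to 0.36 at 2.50%, -0.15 to 0.023 for the slick slope, -0.23 to 0.27 from 1.25% to 2.50%, -0.46 to 0.093 from 2.50% to 5.00%, -0.61 to -0.44 at 0.135% source oil, -0.63 to -0.45 from 0.135% to 0.54% and 0.73 to 1.25 between the oils at the middle rank. For ola-miR-204 they were -0.51 to 0.41 at 1.25% slick oil, -0.21 to 0.84 at 2.50%, 0.11 to 0.36 at 5.00%, -0.25 to 1.01 from 1.25% to 2.50%, -0.57 to 0.50 from 2.50% to 5.00%, -0.11 to 0.74 from 1.25% to 5.00%, -0.89 to -0.56 at 0.27% source oil, -0.56 to -0.21 from 0.135% to 0.27%, -0.55 to -0.29 from 0.135% to 0.54%, -0.21 to 0.14 from 0.27% to 0.54%, -0.085 to 0.80 between the oils at the lowest rank, 0.53 to 1.59 at the middle rank and -0.56 to -0.33 between the controls.

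Counts of called names also moved. Over the settings that kept all libraries they ran from 5 to 57 at 0.54% source oil (47 as reported), 1 to 33 at 0.27% (27), 0 to 13 at 0.135% (0), 1 to 12 at 5.00% slick oil (6), 0 to 2 at 1.25% (0), 4 to 40 between the oils at the highest concentrations (27), 24 to 49 between the controls (46) and 5 to 43 from 0.135% to 0.54% source oil (25). Without single libraries they ran from 26 to 50 at 0.54%, 1 to 43 at 0.27% and 0 to 9 at 0.135% source oil. They ran from 1 to 15 at 5.00% slick oil and from 0 to 13 between the oils at the middle rank. The members' counting error, at most 0.819% per library, was small beside the spread between libraries in all groups but the source controls of ola-miR-204.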
